A study of Homo sapiens with 10 samples.

Results

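Broad non-promoter peaks are stretches of accessible chromatin of 1500 bases or more that lie outside the promoter class of the peak list. They were chosen from the length and the annotation class alone, on chromosomes 1 to 22 and X. The rule found 2054 of the 161934 peaks in the list (1.27%), which is 1.82% of the 112716 non-promoter peaks on these chromosomes. The other 110662 non-promoter peaks, all shorter than 1500 bases, are called narrower here.

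ATAC-seq maps accessible DNA by where the Tn5 transposase can insert sequencing adapters. The cells were MDA-MB-231, an established line of triple-negative breast cancer, in 2 groups of 5 libraries each, ARID1A knockout and control by the genotype in the labels. The labels do not say how the knockout was made or whether it is 1 clone. A single list serves the whole series and has 0 columns with a value per library, so it ties no peak to knockout or control, and no difference between them was computed. Depth is unknown. Peaks of 1 list are not replicates, so shares carry Wilson 95% intervals for counting error only, and no test was run. The number of chromosomes on which a difference has the same direction is given beside the main ones.

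Enhancers are stretches of DNA away from gene starts where transcription factors bind and raise the activity of a gene that may lie far off on the same chromosome. The factors displace nucleosomes, which opens the DNA to the transposase. AP-1, a dimer of FOS and JUN proteins, is a frequent occupant of enhancers in mesenchymal and basal-like breast cancer cells, and it recruits the SWI/SNF (BAF) remodelling complex, of which ARID1A is a subunit. Long stretches of densely bound sequence are known from strongly active enhancers. Length and distance do not by themselves identify an enhancer. Histone marks, transcription and factor binding were not measured here.

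The enhancer-like character of the set was first checked against a second gene annotation. RefSeq places a gene start inside 76 of 1945 broad non-promoter peaks (3.91%, interval 3.13 to 4.86) on the 22 chromosomes for which its starts were at hand. The same held for 654 of 104733 narrower peaks (0.624%, interval 0.579 to 0.674). Per Mb of peak, 22.04 peaks held a start in the broad set and 11.15 in the narrower set, a smaller ratio than that of the shares. A longer peak has more bases in which a start can fall, and the part of length in these shares was not tested. In 62 broad peaks the start belonged to a long non-coding RNA, and in 17 to a protein-coding gene, and some peaks held both. The deposited list places these 76 peaks more than 3000 bases from the nearest start of its own annotation. Outside them, the name enhancer-like rests on length and position alone.

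The 17 peaks with a coding start included those at KLF12, a Krüppel-like repressor, SH3PXD2A, a scaffold protein of invadopodia, SH3BP4, HDAC4, a class IIa histone deacetylase, TNS1, the gene of the focal adhesion protein tensin 1, and HIP1, an endocytic adaptor. The KLF12 peak (chr13:74133780-74136561, 2782 bases) was listed as distal intergenic, 94896 bases from the nearest start. The SIPA1L2 peak (chr1:232629384-232630952, 1569 bases) was listed as distal intergenic, 67826 bases upstream of the nearest start of SIPA1L2, a relative of Rap GTPase-activating proteins. The HIP1 peak (chr7:75638479-75640030, 1552 bases) was listed as intronic, 11509 bases from the nearest start.

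The RefSeq starts inside broad non-promoter peaks were of mixed composition. Across the 93 starts, the window from 250 bases before to 50 bases after the start held a median of 9 CpG dinucleotides. The median was 5 for the 695 starts inside narrower non-promoter peaks, 26 for the 17481 starts inside promoter peaks, and 4 for the 16691 starts with no peak. Starts of SIPA1L2 (41 CpG), HIP1 (41) and KLF12 (25) stood near or above the median of promoter peaks. The 250 bases upstream of these 3 starts are shown because they mark members as rich in CpG as starts in promoter peaks. Sequences are from RefSeq on build GRCh38.p14, 5′ to 3′ on the minus strand in all 3, with each CpG in capitals. The stretches are those of SIPA1L2 (chr1:232630134-232630383, 37 CpG), KLF12 (chr13:74134405-74134654, 20 CpG) and HIP1 (chr7:75639243-75639492, 34 CpG).
SIPA1L2: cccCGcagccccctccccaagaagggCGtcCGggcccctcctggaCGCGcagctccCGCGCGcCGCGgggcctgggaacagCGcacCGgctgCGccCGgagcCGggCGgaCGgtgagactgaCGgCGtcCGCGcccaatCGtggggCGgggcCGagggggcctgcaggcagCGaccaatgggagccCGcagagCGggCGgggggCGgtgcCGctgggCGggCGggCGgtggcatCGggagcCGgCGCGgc
KLF12: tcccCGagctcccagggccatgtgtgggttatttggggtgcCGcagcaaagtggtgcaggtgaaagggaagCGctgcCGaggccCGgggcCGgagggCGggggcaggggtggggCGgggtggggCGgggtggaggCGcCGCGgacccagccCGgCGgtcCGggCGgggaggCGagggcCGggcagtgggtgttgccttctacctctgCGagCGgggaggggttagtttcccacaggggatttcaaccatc
HIP1: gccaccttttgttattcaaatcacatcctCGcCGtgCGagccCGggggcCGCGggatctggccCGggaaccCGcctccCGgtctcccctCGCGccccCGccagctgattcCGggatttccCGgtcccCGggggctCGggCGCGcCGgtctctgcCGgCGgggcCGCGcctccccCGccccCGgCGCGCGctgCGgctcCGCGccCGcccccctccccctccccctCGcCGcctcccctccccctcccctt
In these, G and C made up 81.2% of the SIPA1L2 bases, 72% of the KLF12 bases and 78.4% of the HIP1 bases.

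Some starts in broad peaks held the AP-1 motif. The letters TGANTCA, where N is any base, were searched in the same windows of 300 bases. This motif reads the same on both strands. It was found at 18 of 93 starts in broad non-promoter peaks (19.4%, interval 12.6 to 28.5) and at 167 of 695 starts in narrower ones (24.0%, interval 21.0 to 27.3). Starts in promoter peaks held it in 6.05% (interval 5.71 to 6.42), starts with no peak in 8.63%, and all 34960 starts in 7.68%. Several starts belong to the same gene and their windows overlap, so they are not independent.

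The upstream 250 bases of 4 starts with the motif are shown because they carry the AP-1 letters inside a broad peak, in capitals. The SH3BP4 window (chr2:235027485-235027734, plus strand) lay in an intronic peak of 2094 bases. That of the long non-coding RNA LOC124906269 (chr3:115790851-115791100, plus strand) lay in a distal intergenic peak of 2099 bases. That of LINC02535 (chr6:85404803-85405052, minus strand) lay in a distal intergenic peak of 2203 bases. The window of LOC105375284 (chr7:54996038-54996287, minus strand) lay in a peak of 1505 bases upstream of EGFR, the epidermal growth factor receptor gene.
SH3BP4: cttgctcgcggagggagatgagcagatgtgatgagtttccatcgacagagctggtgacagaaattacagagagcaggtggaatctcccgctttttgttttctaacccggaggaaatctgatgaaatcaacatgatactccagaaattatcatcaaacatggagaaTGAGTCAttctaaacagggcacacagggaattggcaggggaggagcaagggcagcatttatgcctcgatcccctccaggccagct
LOC124906269: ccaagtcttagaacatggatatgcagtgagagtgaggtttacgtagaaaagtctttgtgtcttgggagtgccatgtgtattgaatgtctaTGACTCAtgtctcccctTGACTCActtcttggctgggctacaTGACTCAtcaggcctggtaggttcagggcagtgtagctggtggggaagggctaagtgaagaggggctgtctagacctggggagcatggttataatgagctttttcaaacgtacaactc
LINC02535: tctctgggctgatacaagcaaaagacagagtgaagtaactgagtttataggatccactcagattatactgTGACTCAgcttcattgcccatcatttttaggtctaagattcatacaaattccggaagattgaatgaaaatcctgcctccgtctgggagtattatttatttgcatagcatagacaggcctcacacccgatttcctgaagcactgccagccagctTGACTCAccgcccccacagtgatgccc
LOC105375284: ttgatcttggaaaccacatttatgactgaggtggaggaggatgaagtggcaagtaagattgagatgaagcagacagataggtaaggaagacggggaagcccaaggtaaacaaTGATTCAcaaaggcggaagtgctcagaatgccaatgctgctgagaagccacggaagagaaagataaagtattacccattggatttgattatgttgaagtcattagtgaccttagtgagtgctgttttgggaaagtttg
The LOC124906269 stretch held the motif 3 times and 2 CpG, and the LINC02535 stretch 2 times with 4 CpG. The SH3BP4 stretch held it 1 time with 6 CpG, and the stretch upstream of EGFR 1 time with 3 CpG. A match is a run of letters, and binding was not measured.

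**Figure D1:**
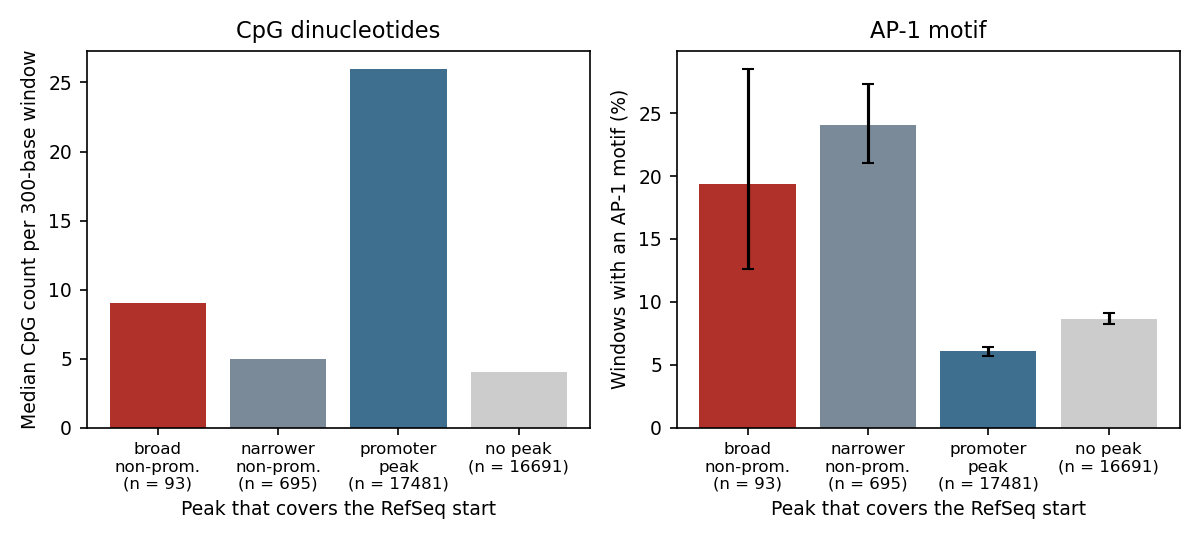
RefSeq gene starts by the kind of peak that covers them. The left panel gives the median number of CpG dinucleotides in the window of 300 bases around the start, and the right panel the share of windows (%) with the AP-1 motif and its Wilson 95% interval. Starts in broad non-promoter peaks had a median of 9 CpG, against 26 in promoter peaks, and held the motif in 19.4%.

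The motifs of 2 other factor families were also counted, on both strands. GGAATG, the core of the site bound by TEAD factors, the DNA-binding partners of YAP, was found at 8 of 93 starts in broad non-promoter peaks (8.60%, interval 4.42 to 16.1), at 19.3% of those in narrower ones (interval 16.5 to 22.4) and at 14.0% of all starts. TGTGGT, the core of the RUNX site, was found at 24 of 93 starts in broad peaks (25.8%, interval 18.0 to 35.5), at 19.7% in narrower ones (interval 16.9 to 22.8) and at 13.1% of all starts. Starts in promoter peaks held the TEAD core in 11.5% and starts with no peak in 16.5%. For RUNX these shares were 9.62% and 16.3%. The intervals of the broad and narrower sets overlapped for AP-1 and RUNX and did not for TEAD, where the broad share was lower. The broad TEAD share rests on 8 windows, and its interval holds the share of promoter peaks. The windows also differed in G and C (median 58.7% in broad, 50.3% in narrower), and the part of that was not tested.

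Broad non-promoter peaks formed the upper tail of a continuous length distribution. Their median length was 1687 bases (interquartile range 1576 to 1878, maximum 3750), against 494 bases (328 to 731) for narrower peaks. Of the 2054, 330 reached 2000 bases, 54 reached 2500 and 12 reached 3000. They covered 3.64 Mb, or 5.56% of all non-promoter peak bases. Among all 7283 peaks of 1500 bases or more on these chromosomes, 28.2% were outside promoters, and 10.6% of promoter peaks were that long. These lengths chose the members and are a description. No gap in length separated the sets. The 78 peaks at most 10 bases above the threshold lay at a median of 14377 bases from a start, and 50% were distal intergenic. The 75 peaks at most 11 bases below it lay at 16307 bases, and 40% were distal intergenic.

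**Figure D2:**
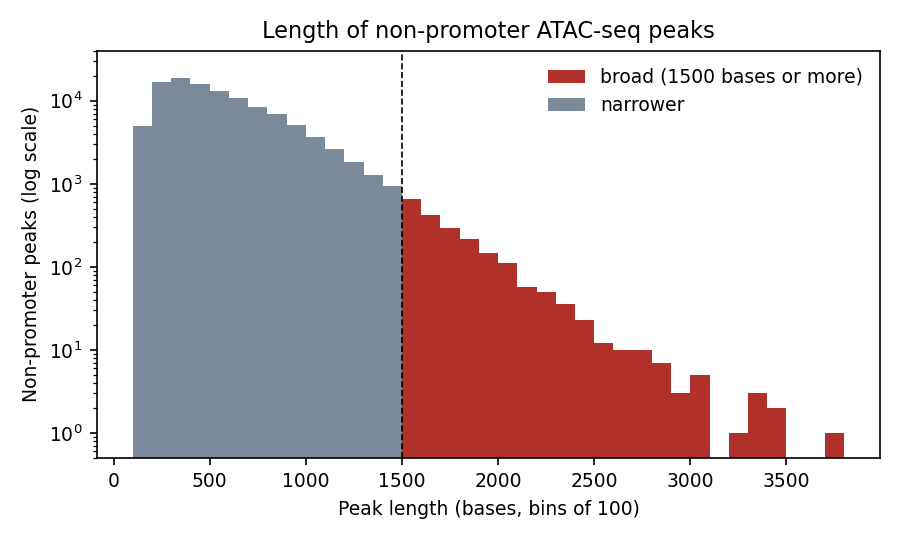
Length of the 112716 non-promoter peaks in bins of 100 bases, with the number of peaks on a log scale. Red bars are the 2054 peaks of 1500 bases or more and grey bars the narrower ones, and the dashed line is the threshold. The counts fall without a step, with 931 peaks in the bin from 1400 bases and 648 in the bin from 1500.

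Introns and intergenic sequence held most of the broad peaks. Introns held 924 (45.0%, interval 42.8 to 47.1) and distal intergenic sequence 863 (42.0%, interval 39.9 to 44.2). Exons held 113 (5.50%), 3' UTRs 80 (3.89%), the stretches just downstream of genes 61 (2.97%) and 5' UTRs 13 (0.633%). The intergenic share of narrower peaks was 42.4%, inside the interval of the broad set, and the broad share was higher on 12 chromosomes and lower on 11. Of the 863 intergenic broad peaks, 158 lay in a RefSeq long non-coding gene (18.3%, interval 15.9 to 21.0), against 14.4% of narrower ones (14.0 to 14.7), and 42 in a RefSeq coding gene (4.87%), against 3.40%. No RefSeq coding or long non-coding gene covered 76.8% of the broad and 82.2% of the narrower intergenic peaks.

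Within introns the sets differed in which intron they occupied. First introns, known to be rich in regulatory elements, held 367 of the 924 intronic broad peaks (39.7%, interval 36.6 to 42.9), against 32.2% (31.8 to 32.6) of the 54219 intronic narrower peaks. Of all peaks, 17.9% of the broad and 15.8% of the narrower were in first introns, higher in the broad set on 16 of 23 chromosomes. Of all peaks of 2000 bases or more, 15.8% were in first introns (interval 12.2 to 20.1), level with the narrower set. Introns of any number held 40.3% of these longest peaks and 49.0% of narrower ones, so the level share is of all peaks, not of intronic ones. Introns after the first held 27.1% of broad and 33.2% of narrower peaks, lower in the broad set on 18 of 23. The start nearest to an intronic broad peak belonged to the gene whose intron it was in for 62.1% (interval 58.9 to 65.2), against 59.8% for narrower ones.

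Exons, 3' UTRs and the sequence just behind genes held somewhat more of the broad peaks. Exons held 5.50% of broad (interval 4.60 to 6.57) and 3.91% of narrower peaks, 3' UTRs 3.89% (3.14 to 4.82) and 2.61%, and downstream stretches 2.97% (2.32 to 3.80) and 1.74%. The broad share was the higher on 16 chromosomes for exons, 14 for 3' UTRs and 16 for downstream stretches. For 5' UTRs, with 0.633% of broad (interval 0.370 to 1.08) and 0.306% of narrower peaks (0.275 to 0.341), it was higher on 9 chromosomes and lower on 14. A longer peak touches more annotated features, and the part of that in these shares was not tested.

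**Figure D3:**
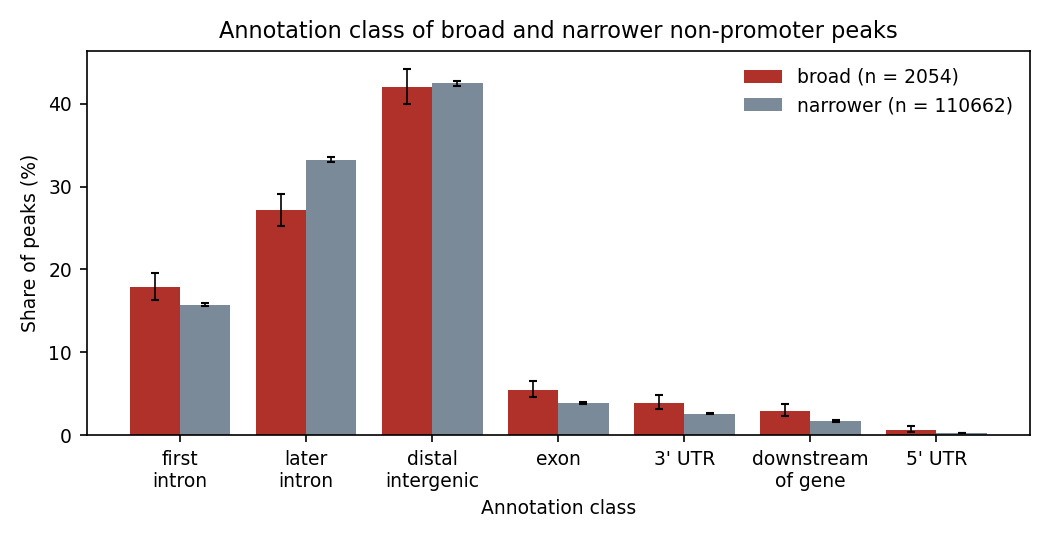
Share of peaks (%) in each annotation class for broad (red) and narrower (grey) non-promoter peaks, with Wilson 95% intervals as bars. The distal intergenic bars are level at 42.0% and 42.4%, and later introns stand at 27.1% and 33.2%.

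Broad peaks lay closer to gene starts than narrower ones. Their median distance to the nearest annotated start was 13620 bases (interquartile range 7123 to 28112), against 15708 (7751 to 35090), and the broad median was the smaller on 18 of 23 chromosomes. Remote sites were rarer in the broad set. At 50 kb or more from a start were 225 broad peaks (11.0%, interval 9.68 to 12.4) and 16.6% of narrower ones (16.4 to 16.8), lower in the broad set on 22 of 23 chromosomes. At 100 kb or more the shares were 2.92% (2.28 to 3.74) and 5.56%. Among distal intergenic peaks alone the medians were 17863 bases in the broad and 21939 in the narrower set, and among intronic peaks 12576 and 13791. Both sets exclude the 3000 bases around starts by rule, so the comparison concerns only sites beyond that. Measured to the centre of each peak, the broad median differed from the narrower by -1480 bases, against -2089 bases when measured to the edge. Peaks upstream of their nearest start made up 48.1% of the broad (interval 45.9 to 50.2) and 47.3% of the narrower set.

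The same held in steps along length. Peaks were taken in 5 classes, under 500 bases and from 500, 1000, 1500 and 2000 bases up to the next limit. The median distance was 15949, 15515, 15090, 13972 and 11303 bases. The share at 50 kb or more was 17.5%, 15.9%, 14.6%, 11.9% and 6.06%. Intergenic shares were 41.8%, 43.0%, 43.6%, 42.3% and 40.3% over the same steps and showed no such order. First introns held 15.8%, 15.7%, 16.2%, 18.3% and 15.8% of all peaks in each step, also in no order. Introns of any number held 50.5%, 47.9%, 45.7%, 45.9% and 40.3%. First introns were thus a larger part of the intronic peaks in the longest class than in the shortest. The longest class held only 330 peaks in all, and no interval was computed for that part. The share of peaks in UTRs or just downstream of genes was 4.24%, 4.91%, 5.84%, 6.67% and 11.8%.

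**Figure D4:**
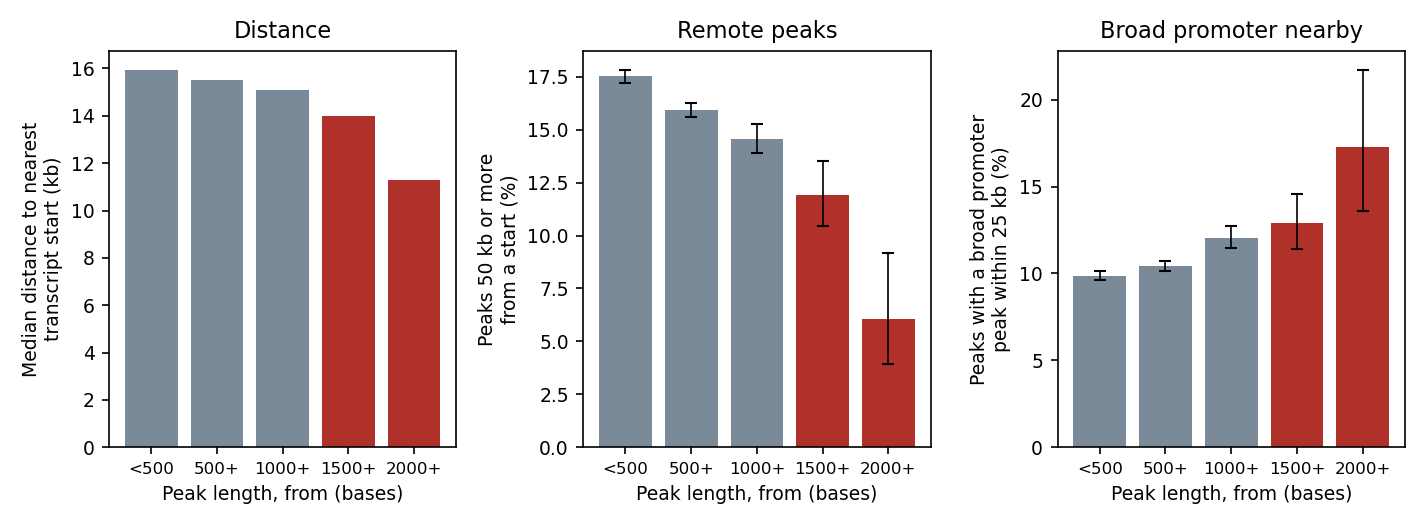
Non-promoter peaks by length, from under 500 to 2000 bases or more (red: 1500 or more). The panels give the median distance to the nearest transcript start (kb), the share at 50 kb or more from a start and the share with a broad promoter peak within 25 kb, the last 2 in % with Wilson 95% intervals. The longest class has a median distance of 11303 bases and 6.06% at 50 kb or more.

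Broad non-promoter peaks sat in regions with more peaks around them. Within 25 kb of the centre, the median broad peak had 5 other peaks of any kind (interquartile range 3 to 7) and the median narrower peak 4 (2 to 6). The broad median was higher on 17 chromosomes and lower on 0. No other peak lay within 25 kb of 3.31% of broad and 7.13% of narrower peaks. A promoter peak of 1500 bases or more lay within 25 kb of 279 broad peaks (13.6%, interval 12.2 to 15.1) and of 10.3% of narrower ones (10.1 to 10.5), higher in the broad set on 19 of 23. Another broad non-promoter peak lay within 25 kb of 226 broad peaks (11.0%, interval 9.72 to 12.4), against 6.08% of narrower peaks (5.94 to 6.22), higher in the broad set on 20 of 23. At the very edge the order differed, since the gap to the next peak had a median of 5090 bases in the broad and 4444 in the narrower set.

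Even so, few broad peaks lay side by side. Joined where 12500 bases or less separated them, the distance often used to stitch enhancers into super-enhancers, 119 peaks (5.79%, interval 4.86 to 6.89) fell into 59 groups. Of these groups, 58 were pairs. The single group of 3 (chr5:172788640-172808784, peaks of 1737, 1790 and 1747 bases) overlapped no RefSeq gene. The pair that filled most of its span was in BCOR, where broad peaks of 1899 and 2402 bases filled 82.5% of a span of 5211 bases (chrX:40104695-40109905). The peak of 1899 bases covers a RefSeq start of the long non-coding RNA LOC107985687. Other pairs lay in SHB, in PXDN, and at MIR29B2CHG, the host transcript of miR-29b and miR-29c (chr1:207805748-207819483, peaks of 2220 and 1677 bases). Joined at 25 kb, 237 peaks fell into 114 groups and the largest held 4.

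Most nearest genes had a single broad peak. The 2054 peaks were assigned by the list to 1853 nearest genes, of which 171 had 2 or more, 24 had 3 or more and 5 had 4 or more. The 171 genes took 372 of the peaks (18.1%). A RefSeq symbol could be paired with 135 of them, 93 protein-coding and 23 long non-coding. The 171 genes had many non-promoter peaks of any length, with a median of 11, against 5 for the 1682 genes with 1 broad peak and 2 for the 28325 genes with only narrower ones. Broad peaks are counted in these numbers, and a gene with more peaks has more that can be broad. That order therefore follows in part from the grouping. The longest promoter peak of the 171 genes had a median of 1315 bases (139 genes with a promoter peak), against 1094 (1184 genes) and 986 bases (16086 genes).

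The largest count, 5, belonged to an Ensembl gene that could not be paired (ENSG00000232197) at the end of the long arm of chromosome 6. Its 5 peaks, of 1846, 1514, 1504, 1719 and 1798 bases, all lay upstream of it, at 8257 to 112164 bases, in sequence with no RefSeq coding gene. They were spread over chr6:170048508-170154260.

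Of the 4 genes with 4 broad peaks, WWC1 encodes KIBRA, a scaffold of the Hippo pathway. Its peaks were 1 of length 1620 bases in intergenic sequence before the gene, 2 of lengths 2331 and 2777 bases in its first intron (chr5:168301568-168303898 and chr5:168363849-168366625) and 1 of length 1797 bases at its 3' UTR. ARHGEF4 had peaks of lengths 1856 and 2196 bases before its start, 1817 bases in intron 1 and 1999 bases at its 3' UTR. GSE1 had 4 intronic peaks, of 1585, 1721, 1616 and 2632 bases, at 12299 to 45047 bases from its nearest starts. BCOR, a corepressor of BCL6 and part of a Polycomb complex, had 3 in its first intron and 1 upstream (1588 bases). These genes had 13 to 36 non-promoter peaks each, so broad peaks were a minority at all 4. Their longest promoter peaks were 1899 bases at WWC1, 1086 at ARHGEF4, 2303 at GSE1 and 2371 at BCOR.

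Other genes had 3 broad peaks, and the values given are peak lengths. HIVEP3, a large zinc finger protein, had 1826, 2423 and 1695 bases, all in a first intron. NFATC2, a calcineurin-dependent transcription factor, had 2057 and 1669 bases in its first intron. Its peak of 1697 bases was listed as intergenic, 52165 bases beyond its nearest start. RefSeq places that peak inside the coding gene LOC124904930, 7172 bases from the start of LOC124904930. PXDN, the gene of peroxidasin, which cross-links collagen IV, had all 3 in introns (2081, 2161 and 1675 bases). PVT1, the long non-coding RNA gene beside MYC, had 1680, 1918 and 2231 bases in introns, and the class column placed 5 broad peaks in PVT1 introns in all. NIBAN2 had 2107, 2001 and 1526 bases. Genes with 3 peaks also included the long non-coding RNA genes LOC105371024, LINC02538, LINC00322 and SLEAR. Non-promoter peaks of any length numbered 33 at HIVEP3, 38 at NFATC2, 14 at PXDN, 36 at PVT1 and 12 at NIBAN2. They numbered 6 at LOC105371024, 24 at LINC02538, 13 at LINC00322 and 8 at SLEAR.

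The nearest start was not always that of the gene around the peak. The 3 peaks assigned to RNU7-124P, a U7 small nuclear RNA pseudogene of 62 bases, were 2335, 1938 and 1746 bases long. All 3 lay inside SHB, an adaptor protein gene. Likewise MIR3922 had 2 broad peaks, of 1748 and 1901 bases, both in an intron of CHST11, a chondroitin sulfotransferase. Some genes held more broad peaks in introns than the nearest start gave them. The class column placed 5 in introns of GSE1, 4 each in HIVEP3 and CDH4, 3 in TEAD1 and 2 in TGFBR3. A gene with many broad peaks in the count by nearest start is therefore the owner of that start, and which gene a peak acts on was not measured.

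The next genes in the same order, picked with their values in view, also had 3 broad peaks each. TXNRD1, thioredoxin reductase 1, had peaks of 1517 bases in intron 1 and of 2090 and 1605 bases downstream. ZFP36L2, which targets AU-rich mRNAs for decay, had 1602, 1724 and 1741 bases downstream, from 6246 to 56750 bases from its start. BMAL1, the circadian transcription factor, had 1522, 1529 and 1755 bases. EXT1, a heparan sulfate polymerase, had 1657, 1757 and 1875 bases in its first intron, 90423 to 119355 bases from the start, out of 65 non-promoter peaks at the gene. CDH4, the gene of R-cadherin, had 1731, 1560 and 1556 bases in intron 2. Non-promoter peaks of any length numbered 27 at TXNRD1, 10 at ZFP36L2, 13 at BMAL1 and 31 at CDH4.

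**Figure D5:**
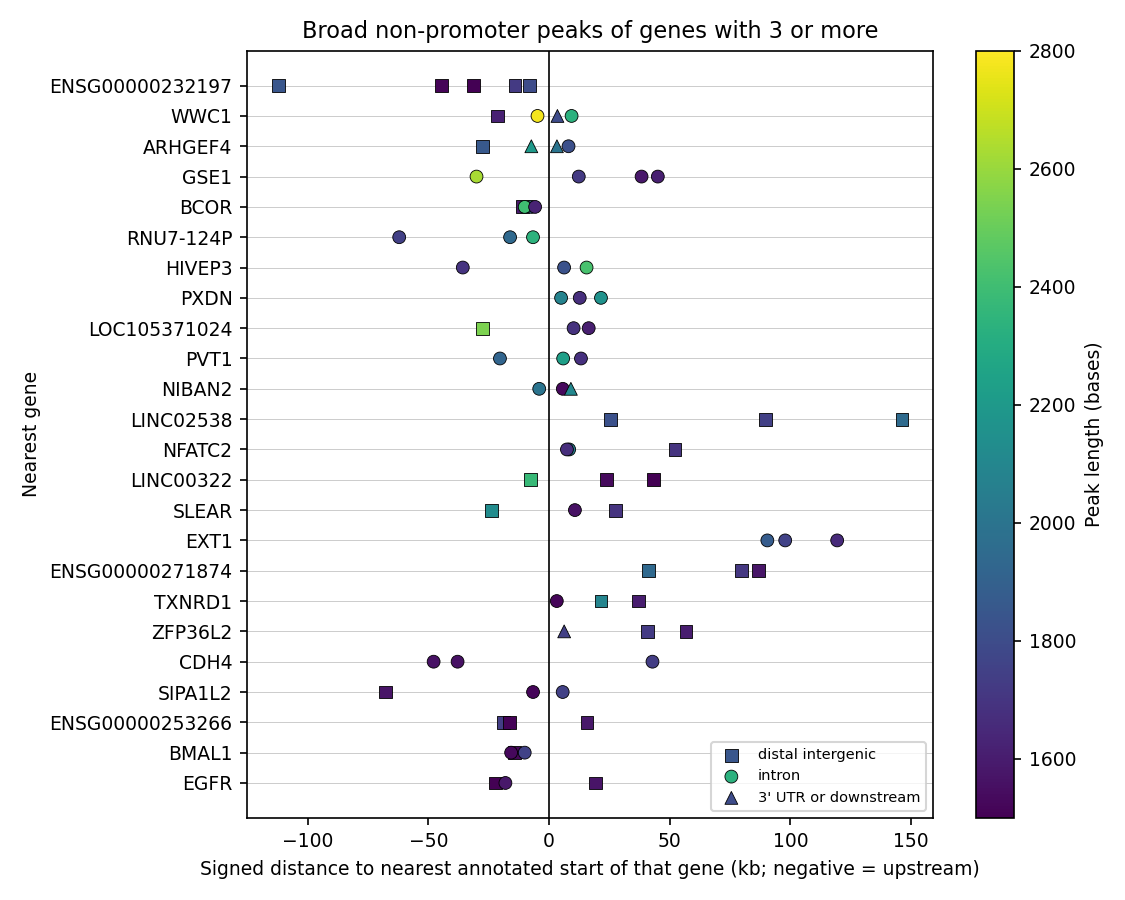
Signed distance (kb, negative upstream) of each broad non-promoter peak from the nearest annotated start of its gene, for the 24 genes with 3 or more, in order of count and then summed length. Colour is peak length in bases and the symbol is the annotation class. EXT1 peaks lie 90423 to 119355 bases inside the gene, while those of BCOR lie within 11013 bases of a start, all upstream of it.

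Of the 10 longest members, the 9 described here lay on 9 chromosomes. A peak of 3441 bases lay on chromosome 2 (chr2:10431924-10435364), which is intergenic in the list but covers a RefSeq start of the long non-coding RNA LOC124907732. STK10, a serine/threonine kinase gene, held 3408 bases in intron 1. A peak of 3391 bases overlapped exon 2 of SNX32, and 3363 bases were at a 3' UTR within PLEC, the gene of the cytolinker plectin. Beyond these were 3336 bases near LOC105376292, 3253 near LINC00917, 3088 in intron 2 of HIPK2, a kinase of the p53 pathway, 3064 before the start of EIF2B2, a subunit of the initiation factor eIF2B, and 3059 in intergenic sequence on chromosome 3. These 9 comprised 2 in introns, 5 intergenic, 1 in an exon and 1 in a 3' UTR.

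Genes of 13 lists, fitted to these cells and to other cell types, were looked up next. The lists were chosen with earlier results of these data known, so their shares are a description only. Over the whole list, 810 of 14873 paired protein-coding genes (5.45%) were the nearest gene of 1 or more. Of 202 paired genes in the lists, 22 were (10.9%). Per peak, 27 of 803 non-promoter peaks nearest to list genes were broad (3.36%, interval 2.32 to 4.85), against 1.88% for all paired coding genes. The median number of non-promoter peaks was 2 for list genes and for all. In total the 202 list genes had 803 and the 14873 coding genes 49116. The part of peak number in the shares of genes was not tested. With a threshold of 2000 bases, 0.990% of list genes and 1.07% of all coding genes had one. The counts per list are small.

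At most 3 genes of a list had a broad peak. EGFR had 3 broad peaks among 35 non-promoter peaks. Their lengths were 1505 bases in intergenic sequence (chr7:54995154-54996658, 22363 bases before the start), 1582 bases in intron 1 and 1571 bases beyond the gene. EGFR stands in the basal list, where 2 of 13 genes had a broad peak, and in the list of receptor kinases and MAPK feedback genes, where 3 of 18 did. The others there were SPRED2, an inhibitor of RAS-MAPK signalling (1697 and 1504 bases), and the ephrin receptor EPHA2 (1684 bases in intron 3). Of YAP/TEAD genes 3 of 14 had one. TEAD1 had 1798 and 1829 bases in introns, TEAD3 1643 bases in intron 2, and the coactivator YAP1 1589 bases in intron 2.

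The AP-1 factors had a broad peak at 1 of 15 genes, FOSL2, with a peak of 2619 bases listed as intergenic, 31001 bases before its start (chr2:28358829-28361447). That peak covers a RefSeq start of the long non-coding RNA LOC105374382. Of TGF-beta and BMP genes 3 of 19 had a broad peak. SKI, a repressor of SMAD proteins, had 1588 and 1513 bases, that of 1513 over a RefSeq start of the long non-coding RNA LOC124903824. The signal transducer SMAD3 had 1789 bases, and the coreceptor TGFBR3 1548 bases in intron 2. Of the NF-kB list 2 of 18 did, the cytokine genes IL1B (1578 bases) and LIF (1502 bases). Mesenchymal genes had 2 of 21, the hyaluronan receptor CD44 (1881 bases in intron 1) and SNAI1, the gene of the transcription factor SNAIL (1572 bases). Epithelial genes had 2 of 16, ELF3, an epithelial ETS factor (1665 bases), and JUP, plakoglobin (1535 bases). Luminal genes had 1 of 12, the pioneer factor FOXA1 (1515 bases).

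Genes of other cell types had none. Leukocyte markers had 0 of 11, with 0 of 27 non-promoter peaks broad (interval to 12.46%), and endothelial markers 0 of 10, with 0 of 40 (interval to 8.76%). Housekeeping genes had 2 of 12, PPIA, cyclophilin A, with 1554 bases in intron 1, and B2M, the light chain of MHC class I, with 1816 bases at 3467 bases from its start. Beside the 5.45% of all coding genes, counts of 0 to 3 a list are given as a description and set no list apart.

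Of the SWI/SNF subunits, 2 of 27 had a broad peak. In ARID1A, the gene knocked out in 5 of the libraries, it was 1617 bases in intron 1 (chr1:26704911-26706527), 8507 bases from a start, and the longest of the gene's 5 non-promoter peaks. DPF3, a subunit that reads histone acetylation, had 2217 bases in intron 8. ARID1B, the paralog that can stand in for ARID1A in the complex, had 0 among 21 non-promoter peaks, the longest of 1061 bases. Whether the ARID1A peak came from knockout libraries, control libraries or both is not given by the list.

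Chromosomes differed in the share of their non-promoter peaks that were broad. The share was lowest on chromosome 4 (63 of 5736, 1.10%, interval 0.859 to 1.40) and chromosome 13 (1.26%, interval 0.976 to 1.62). It was highest on chromosome 22 (31 of 1228, 2.52%, interval 1.78 to 3.56), chromosome 21 (2.46%) and chromosome 17 (2.42%, interval 1.97 to 2.97). The intervals of chromosome 4 and chromosome 17 do not overlap, but these were picked from the ends of 23 chromosomes. Copy number was not measured.

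In windows of 1 Mb, 1198 held a broad non-promoter peak, 700 of them a single one, and 38 held 5 or more. The highest count, 7, was reached in 4 windows. One (chr11:69000001-70000000) holds 124 non-promoter peaks and 11 coding genes, among them CCND1, the gene of cyclin D1, ANO1 and FGF19. The nearest genes of its broad peaks that could be paired were LINC01488 and SMIM38. Another (chr12:104000001-105000000) holds TXNRD1 and CHST11 among 88. The window on chromosome 2 (chr2:9000001-10000000) holds ASAP2, a regulator of ARF GTPases, and ADAM17, the protease that sheds EGFR ligands, among 99. Its broad peaks had ASAP2, EIF1P7 and LOC100996549 as paired nearest genes. The window on chromosome 6 (chr6:167000001-168000000) holds AFDN, the gene of the junction protein afadin, among 132. The copy number of these windows was not measured either.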

How the data were processed

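ATAC-seq was performed on 10 MDA-MB-231 libraries, 5 ARID1A knockout and 5 control. The submitters' processing notes name Bowtie2 2.3.5.1, an aligner, MACS2 2.2.6, a peak caller, and build hg38. The sources used here do not give thresholds, duplicate handling, how libraries were merged or the annotation release. These steps set peak length, and so which peaks are members. The deposited table has 17 columns, with positions and lengths in bases and a signed distance score in bases to the nearest transcript start, and this table, the only file used, has no count per library, so the planned test of knockout against control was not run.

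Members, gene lists and named genes were chosen with earlier results of these data known. Named genes are the 15 with most broad peaks, those nearest to the 10 longest, up to 4 a list, ARID1A and ARID1B. Any other gene was picked with its values in view. A few results that the rule covers are not reported here. Ensembl genes were paired with RefSeq symbols (GRCh38.p14) where each was the other's best match by position, with overlap of at least 0.5 of the union and no opposite strand. This gave 27681 of 39847 genes, 14873 of them protein-coding, and 202 of 224 list genes. Gene extents came from transcripts in the list. RefSeq starts covered 22 of 23 chromosomes and are not complete. Lookups were tested on simulated data. Python 3.11.15, numpy 2.4.6, pandas 2.3.3, scipy 1.17.1 and matplotlib 3.10.9 were used.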

Additional observations from a re-analysis of the deposited data

How the results depend on the processing

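No paired analysis was possible because the deposited peaks carry no values for single libraries. Leaving out libraries was not run for the same reason, and depth is unknown. The difference in intergenic share between broad and narrower peaks (-0.43 percentage points) stayed within 2.14 points of 0 under 5 alternatives, with either sign. The difference in median distance (-2089 bases) was -950 with a length threshold of 1000 bases, -4379 with 2000 bases and -2917 among peaks at least 10000 bases from a start. It changed little against narrower peaks of at least 500 bases (-1820) and without chromosome 1 (-1987). Measured to the peak's centre, a setting chosen after the data were seen, the difference was smaller in size (-1480). Genes with several broad peaks numbered 171, with 2345 at 1000 bases, 9 at 2000 bases and 82 at least 10000 bases from a start. The share of broad peaks in groups, 5.79%, was 20.4%, 0.606% and 4.76% under the same changes, and 1.46% and 11.5% when joined within 5000 and 25000 bases. List genes with a broad peak, 10.9%, were 32.7%, 0.990% and 4.46%, and 27.2% when a peak in or within 50 kb of the gene body counted (224 genes). All coding genes stood at 5.45%, 23.6%, 1.07%, 3.04% and 12.3% in the same order. Counts of peaks and genes follow the length threshold, since fewer or more peaks enter by construction.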
